A study of Drosophila simulans and Drosophila melanogaster and Drosophila sechellia with 48 samples.

Results

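The Acp53 genes are tandem paralogs that encode accessory gland proteins, and 3 of the 4 named members of the cluster were measured in males of 7 Drosophila species. Members were matched to probe sets by gene symbol, and were chosen with earlier results of these data known. Acp53Ea (probe set 143825_at), Acp53C14a (147327_at) and Acp53C14b (147328_at) each had a probe set, whereas Acp53C14c had none carrying its symbol and was dropped. They are 3 of the 12367 features tested. Accessory gland proteins are secreted by the male reproductive gland of that name and pass to the female with the sperm at mating, where seminal proteins as a class alter egg laying, receptivity and the storage and competition of sperm. Acp53Ea is a small secreted protein of D. melanogaster seminal fluid whose natural variants have been linked to sperm competition. Acp53C14a and Acp53C14b are related in sequence to it, and many genes of this class change rapidly among species.

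RNA of whole males, 3 days after pupation and 20 males a sample, was hybridised to 48 Affymetrix arrays, 3 independent samples for each of 16 groups, all raised at 25 C under continuous light. The yakuba complex was represented by D. santomea, D. teissieri and D. yakuba, and the island relatives of D. simulans by D. sechellia and D. mauritiana, with a single line for each of these 5 species, so that line and species cannot be told apart there. D. simulans was represented by 10 crosses of inbred lines in a round robin (6x11, 11x36, 36x37, 37x43, 43x61, 61x77, 77x85, 85x99, 99x105 and 105x6), in which neighbouring crosses share a parental line, and D. melanogaster by even mixtures of genotypes from 10 inbred lines crossed in the same way. No group carried a mutation or treatment. The 33 arrays of D. simulans and D. melanogaster came from an earlier collection than the 15 arrays of the other species. D. melanogaster, D. simulans, D. sechellia and D. mauritiana are here called the melanogaster complex.

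The probes were designed to the D. melanogaster sequence. A low signal in another species can therefore reflect fewer matched probes or fewer transcripts, and these cannot be told apart in any comparison below. In RNA of whole males, fewer secretory cells and less RNA per cell cannot be told apart either. Signals are MAS5 values, on a linear scale on which each array's trimmed mean is 500. Levels of the Acp53 probe sets were not ranked against each other, and their ratios on the same array were compared only between groups.

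Marker lists placed 2 arrays apart from the rest. Female yolk and eggshell genes, of which 12 of 14 were measured, had a summed signal of 106230 on D. sechellia replicate 1, against 2333 and 2735 on the other D. sechellia arrays, and of 176541 on replicate 3 of cross 37x43, against 1936 and 2347 on the other arrays of that cross. On the remaining arrays the sum lay between 3904 and 10532 in the yakuba complex and between 1392 and 3218 in the melanogaster complex. Results that rest on these arrays are given with and without them. Testis and sperm genes, of which 11 of 17 were measured, had summed signals between 49825 and 489570 over the 48 arrays.

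The yakuba complex and the melanogaster complex stood furthest apart for Acp53Ea and Acp53C14b, and less far apart for Acp53C14a. Acp53Ea gave 50.3, 3.24 and 25.6 in D. teissieri, 11.6, 22.9 and 5.72 in D. yakuba and 16.9, 29.0 and 6.55 in D. santomea. It gave 390, 408 and 743 in D. sechellia, 804, 1109 and 389 in D. mauritiana, and 1295, 2632 and 3655 in D. melanogaster. Over the 30 D. simulans arrays its lowest, median and highest signals were 109, 279 and 707. No array of the yakuba complex reached the lowest array of the melanogaster complex, and the D. melanogaster arrays lay above all others.

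Acp53C14b followed the same division. Its signal was 52.8, 46.9 and 108 in D. teissieri, 88.0, 101 and 23.4 in D. yakuba and 22.7, 75.4 and 49.2 in D. santomea. It was 969, 1093 and 2196 in D. sechellia, 1882, 1887 and 1469 in D. mauritiana, and 2538, 2934 and 4143 in D. melanogaster, and 727, 1367 and 4984 at the lowest, median and highest D. simulans array. Every array of the melanogaster complex lay above those of the yakuba complex. Within it, the D. melanogaster arrays overlapped only D. simulans, whereas D. sechellia, D. mauritiana and D. simulans overlapped each other.

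Acp53C14a gave a signal of 271 or more on every array. It gave 1950, 643 and 565 in D. teissieri, 941, 1397 and 584 in D. yakuba and 814, 2327 and 271 in D. santomea. It gave 7183, 9318 and 17706 in D. sechellia, 1899, 1878 and 1581 in D. mauritiana, and 4608, 8363 and 12028 in D. melanogaster, and 1253, 3765 and 12631 at the lowest, median and highest D. simulans array. The brightest yakuba complex arrays overlapped D. mauritiana and the lower D. simulans arrays, and the D. sechellia arrays were among the brightest of all.

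**Figure D1:**
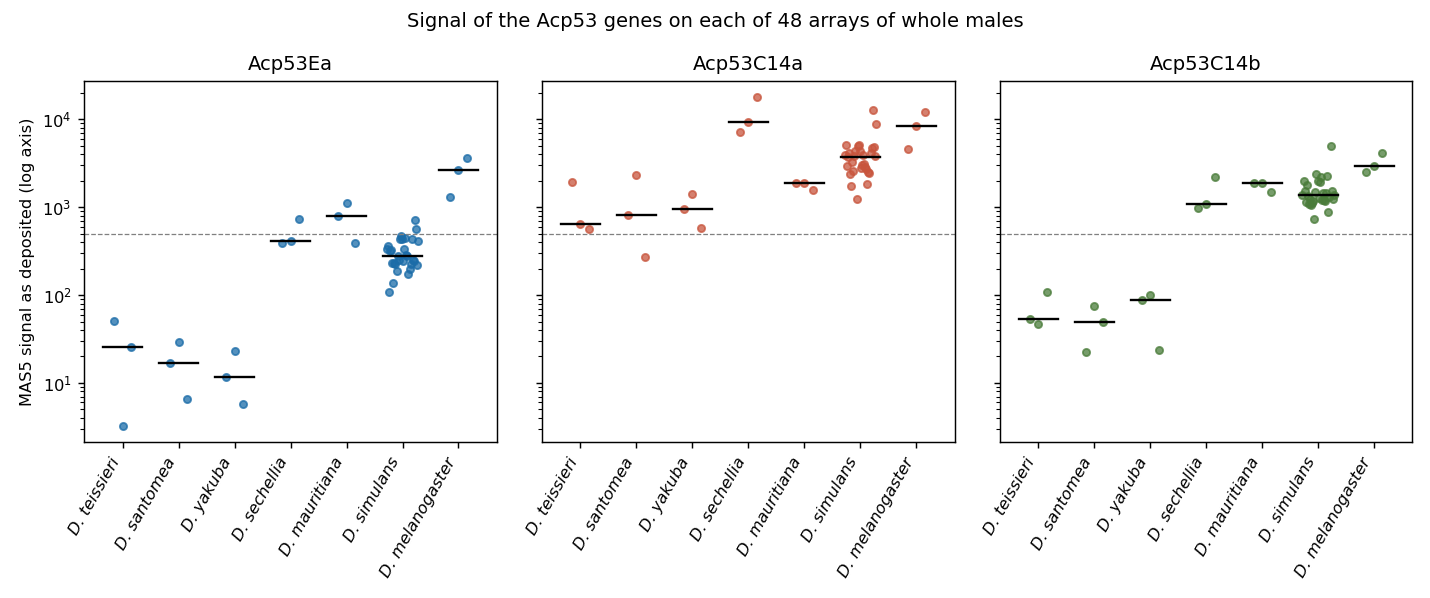
Deposited MAS5 signal (log axis) of each Acp53 gene on the 48 arrays, by species; each point is 1 array, the bar is the species median and the dashed line marks the trimmed mean of 500 to which arrays were scaled. For Acp53Ea the yakuba complex arrays lie between 3.24 and 50.3, and for Acp53C14b between 22.7 and 108, below all other arrays, whereas for Acp53C14a they lie between 271 and 2327 and overlap D. mauritiana and D. simulans.

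Differences were tested on normalised log2 signals with limma over all features. Among the 7 species, all 3 genes passed the F-test (adjusted p = 3e-15 for Acp53Ea, 7.78e-08 for Acp53C14a and 1.5e-17 for Acp53C14b, limma with Benjamini-Hochberg adjustment), where 66% of all features also did. The standard deviation of the 7 species means was 3.34 for Acp53Ea, 1.59 for Acp53C14a and 2.80 for Acp53C14b on the log2 scale, against a median of 0.726 over all features. Between replicates the pooled standard deviation was 0.785, 0.721 and 0.575 in the same order of genes, near the median of 0.752 over all features.

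The yakuba complex was lower than the melanogaster complex for each gene. For the complexes, here and below, the standard errors and p-values of limma come from the spread of replicate arrays within the 16 groups. They leave out the spread between species of a complex. Acp53Ea averaged 3.47 in the yakuba complex and 9.45 in the melanogaster complex on the log2 scale, a difference of -5.98 ± 0.32 (SE; adjusted p = 2.53e-17, limma). Acp53C14b averaged 5.66 and 10.81 in the same groups, a difference of -5.15 ± 0.24 (adjusted p = 6.19e-19, limma). Acp53C14a averaged 9.77 and 12.28, a difference of -2.50 ± 0.30, or 5.66-fold lower (adjusted p = 1.12e-08, limma). Of all features 49.8% passed this test, 24.5% with lower signal in the yakuba complex, and the median difference over all features was 0.08. The arrays of the complexes did not overlap for Acp53Ea and Acp53C14b, as for 2.32% of features. Acp53Ea signals in the yakuba complex were as low as 3.24; with signals under 16 set to 16, the Acp53Ea difference became -5.20 and remained past the threshold. Acp53C14b signals in the yakuba complex lay between 22.7 and 108, above that floor. In this comparison no fold is given for Acp53Ea and Acp53C14b, since their low signals were not separated from background.

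This division crosses the collections, so the yakuba complex was also compared with D. sechellia and D. mauritiana alone, all from the later collection. The same yakuba complex arrays enter both comparisons. Acp53Ea differed by -5.76 ± 0.41 (yakuba complex minus D. sechellia and D. mauritiana; adjusted p = 8.32e-14, limma) and Acp53C14b by -4.90 ± 0.30 (adjusted p = 3.53e-15, limma). Acp53C14a differed by -2.37 ± 0.37 (adjusted p = 4.08e-06, limma). In this comparison 39.3% of features passed, 21% with lower signal in the yakuba complex. The arrays did not overlap for Acp53Ea and Acp53C14b, as for 8.71% of features, and overlapped for Acp53C14a. Without the arrays that carried female transcripts the differences were -5.86, -5.02 and -2.50 for Acp53Ea, Acp53C14b and Acp53C14a, and with signals under 16 set to 16 that of Acp53Ea was -4.98.

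The unequal sizes of these differences were tested through ratios within arrays, with an exact two-sided permutation test of 9 yakuba complex arrays against the 6 arrays of D. sechellia and D. mauritiana and p-values adjusted over the 3 pairs of genes. The log2 ratio of Acp53Ea to Acp53C14a averaged -6.30 in the yakuba complex and -2.91 in D. sechellia and D. mauritiana, a difference of -3.39 (exact permutation, adjusted p = 0.0012, from a raw p of 0.0004, the smallest this design can give). With signals under 16 set to 16 that difference was -2.61 (exact permutation, adjusted p = 0.00959). The ratio of Acp53C14a to Acp53C14b averaged 4.11 and 1.59 in these groups, a difference of 2.52 (exact permutation, adjusted p = 0.0168). For Acp53Ea to Acp53C14b the averages were -2.19 and -1.33, and the difference of -0.87 did not pass (exact permutation, adjusted p = 0.121). That last call depended on single arrays, since the difference was -1.09 (adjusted p = 0.044, exact permutation) without D. santomea replicate 1 and -1.13 (adjusted p = 0.0266, exact permutation) without D. teissieri replicate 1, and it was -0.09 with signals under 16 set to 16. The ratio of Acp53Ea to Acp53C14a did not overlap between the groups (-7.57 to -5.00 in the yakuba complex, -4.65 to -0.69 in D. sechellia and D. mauritiana). That of Acp53C14a to Acp53C14b did (2.46 to 5.76 in the yakuba complex, -0.01 to 3.21 in D. sechellia and D. mauritiana), and its upper values there were those of D. sechellia. The test exchanged single arrays, which are 3 replicates of each of 5 lines, so its p-values leave out the spread between lines of a complex. Ratios of other pairs of features were not tested, here or below, so no share over all features can be given. The differences in ratio are therefore not shown to be particular to the Acp53 genes.

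Other seminal fluid genes gave a wider span of differences. Of a list of 26 such genes, 21 were measured. In the yakuba complex against the melanogaster complex, 14 were lower, 1 was higher and the other 6 did not pass, with a median difference of -1.88 and adjustment over all features. Of all features 49.8% passed this test, 24.5% with lower signal in the yakuba complex. Acp95EF was lowest, with a difference of -7.50 ± 0.19 (adjusted p = 1.31e-26, limma), followed by Acp36DE, a protein needed for sperm storage, at -5.30 ± 0.49 (adjusted p = 3.46e-11, limma). CG17575, one of the seminal proteins through which the sex peptide acts for long after mating, was higher, with a difference of 2.07 ± 0.20 (adjusted p = 6.34e-11, limma). Against D. sechellia and D. mauritiana alone, 12 were lower and 2 were higher, with a median of -1.67, where 39.3% of all features passed, 21% lower. The lowest were Acp95EF at -6.75 and Acp36DE at -5.40, and the higher ones were CG17575 at 2.04 and Acp26Aa, the ovulation-stimulating ovulin, at 2.29. Acp26Aa was low in both groups, with mean log2 of 2.49 in D. sechellia, 2.21 in D. mauritiana and 3.15 to 5.52 in the yakuba complex. Such signals were not separated from background. The summed signal of the 21 genes was 8507 to 12863 in D. teissieri, 9863 to 29194 in D. yakuba and 12207 to 22689 in D. santomea, against 23266 to 37009 in D. sechellia, 48545 to 50983 in D. mauritiana, 56568 to 312520 in D. simulans and 108719 to 144628 in D. melanogaster. On this linear scale the brightest genes weigh most. Mst57Da had the highest mean log2 of the 21 genes in D. simulans and D. melanogaster, at 16.11 and 15.68. The sum of the testis genes was 92980 to 489570 in the yakuba complex, against 49825 to 98865 in D. sechellia and D. mauritiana, 107409 to 453459 in D. simulans and 140448 to 194689 in D. melanogaster. The sum of the female genes was 3904 to 10532 in the yakuba complex, against 1392 to 3218 in the melanogaster complex without its 2 arrays with high female sums, so that these arrays did not overlap. The part of tissue content in the Acp53 differences was not tested.

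Within the earlier collection, all 3 genes were lower in D. simulans than in D. melanogaster, where 19.2% of features passed the test, 9.1% with lower signal in D. simulans. Acp53Ea averaged 8.17 ± 0.63 (SD, n = 30) in D. simulans and 11.18 ± 0.76 (SD, n = 3) in D. melanogaster, a difference of -3.02 ± 0.47 (SE), or 8.11-fold lower (adjusted p = 1.06e-05, limma), and the arrays did not overlap, as for 8.23% of features. Acp53C14a averaged 11.75 ± 0.66 and 13.05 ± 0.85 in these species, a difference of -1.30 ± 0.43, or 2.45-fold lower (adjusted p = 0.0303, limma). Acp53C14b averaged 10.50 ± 0.50 and 11.63 ± 0.32, a difference of -1.13 ± 0.35, or 2.19-fold lower (adjusted p = 0.0195, limma). For these 2 genes the arrays overlapped. Their calls were lost without D. melanogaster replicate 2 (-1.28, adjusted p = 0.118 for Acp53C14a and -1.16, adjusted p = 0.075 for Acp53C14b, limma) or replicate 3 (-0.88, adjusted p = 0.272 and -0.96, adjusted p = 0.135, limma), and that of Acp53C14a also with median centring of the arrays (-1.08, adjusted p = 0.073, limma).

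The ratios within arrays, a comparison added after the data were seen, separated Acp53Ea from both paralogs here. The log2 ratio of Acp53Ea to Acp53C14a averaged -3.59 in D. simulans and -1.87 in D. melanogaster, and that of Acp53Ea to Acp53C14b averaged -2.33 and -0.45; the differences of -1.72 and -1.89 each had an adjusted p of 0.00055 (exact permutation, two-sided, over 3 pairs, with a raw p of 0.000367, the smallest this design can give). The ratio of Acp53C14a to Acp53C14b averaged 1.26 and 1.42, a difference of -0.16 (exact permutation, p = 0.589). These tests also exchanged single arrays. The 30 D. simulans arrays are 3 replicates of each of 10 crosses that share parental lines, so the p-values treat arrays of the same cross as independent. Of the 21 other seminal fluid genes, 8 were lower in D. simulans and none was higher, with a median difference of -0.74, where 9.1% of all features were lower. The lowest were Acp63F at -6.66 ± 0.81 (adjusted p = 1.45e-07, limma) and Acp26Aa at -6.45 ± 0.87 (adjusted p = 1.26e-06, limma). In D. simulans their mean log2 was 5.39 and 3.73, and such low signals were not separated from background.

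Among the 3 relatives on the simulans branch, Acp53C14a was higher in D. sechellia than in D. mauritiana. It averaged 13.47 ± 0.64 (SD, n = 3) in D. sechellia and 10.82 ± 0.14 (SD, n = 3) in D. mauritiana, from the same collection, a difference of 2.65 ± 0.58 (SE), or 6.28-fold (adjusted p = 0.00302, limma), and their arrays did not overlap. Of all features 5.26% passed this test, 2.32% with higher signal in D. sechellia, and in 30.8% the arrays did not overlap. Neither paralog passed. Acp53Ea differed by -0.61 (95% interval -1.88 to 0.67; adjusted p = 0.738, limma) and Acp53C14b by -0.46 (95% interval -1.42 to 0.50; adjusted p = 0.735, limma). The log2 ratio of Acp53C14a to Acp53C14b was between 3.11 and 3.21 on the D. sechellia arrays and between -0.01 and 0.10 on the D. mauritiana arrays, and that of Acp53Ea to Acp53C14a was between -4.65 and -4.43 and between -2.00 and -0.69; with 3 arrays a group, the exact two-sided permutation test of each could not go below p = 0.1, the value it gave. Of the other seminal fluid genes, 3 were lower and 1 higher in D. sechellia than in D. mauritiana, from msopa at -3.02 ± 0.76 (adjusted p = 0.0109, limma) to CG17575 at 1.66 ± 0.38 (adjusted p = 0.00508, limma). Without D. sechellia replicate 1, which carried female transcripts, and replicate 3 of cross 37x43, the Acp53C14a difference was 2.90 (adjusted p = 0.00433, limma).

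Acp53C14a was also higher in D. sechellia than in D. simulans, at 13.47 and 11.75, a difference of 1.72 ± 0.43 (SE), or 3.29-fold (adjusted p = 0.00613, limma). Here 11.2% of features passed, 5.3% with higher signal in D. sechellia, and these species came from different collections. The arrays overlapped, since D. simulans reached 8945 and 12631 where the lowest D. sechellia array gave 7183. The call was lost without D. sechellia replicate 3 (1.36, adjusted p = 0.0991, limma) and kept without the arrays that carried female transcripts (1.91, adjusted p = 0.0174, limma). Acp53Ea differed by 0.76 (95% interval -0.18 to 1.71; adjusted p = 0.325, limma) and Acp53C14b by -0.17 (95% interval -0.88 to 0.54; adjusted p = 0.816, limma). Of the other seminal fluid genes, 5 were lower and 1 higher in D. sechellia than in D. simulans, the sex peptide SP lowest at -2.67 ± 0.33 (adjusted p = 2.93e-07, limma) and Acp26Ab highest at 2.42 ± 0.48 (adjusted p = 0.000514, limma).

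Between D. mauritiana and D. simulans, 0 of the 3 genes passed with limma, 2 had an unadjusted p under 0.05, and 11.2% of features passed. Acp53Ea lay at the threshold, with 9.54 in D. mauritiana and 8.17 in D. simulans, a difference of 1.37 ± 0.47 (SE; adjusted p = 0.0505, limma). It passed under several alternatives, with an adjusted p between 0.0104 and 0.081 over the alternatives other than leaving out single arrays in turn. It also passed, with an adjusted p between 0.0226 and 0.0495 (limma), without any one of D. melanogaster replicate 1, D. mauritiana replicate 3, D. teissieri replicates 1 and 2, D. yakuba replicates 2 and 3, D. santomea replicates 2 and 3, 6x11 replicates 1 and 2, 85x99 replicate 3, 99x105 replicate 3 and 105x6 replicate 1. Acp53C14a differed by -0.93 ± 0.43 (adjusted p = 0.173, limma), and passed only when the fit was restricted to the groups compared (adjusted p = 0.0345, limma). Acp53C14b differed by 0.29 (95% interval -0.42 to 1.001; adjusted p = 0.664, limma). Of the other seminal fluid genes, 4 were higher and 2 lower in D. mauritiana, from Mst57Dc at 3.26 ± 0.71 (adjusted p = 0.0016, limma) to Mst57Da at -2.90 ± 0.32 (adjusted p = 4.14e-08, limma).

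**Figure D2:**
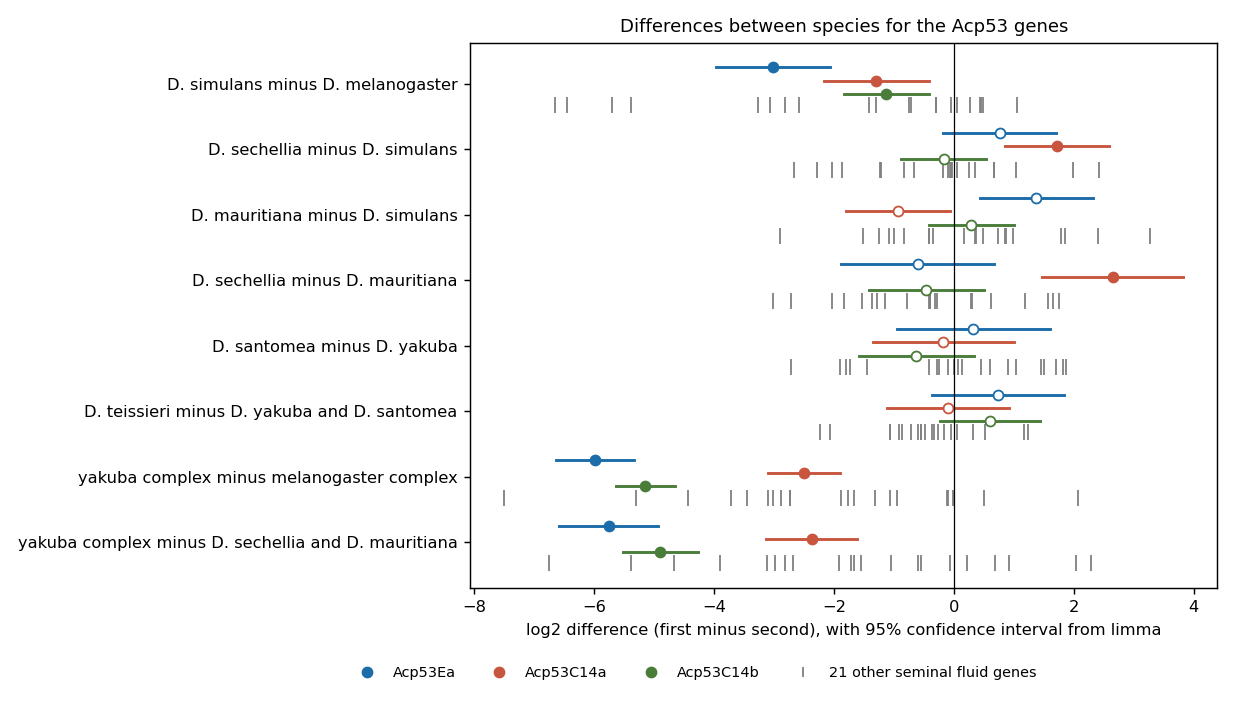
Log2 differences between species (first named minus second) for the Acp53 genes, with 95% confidence intervals from limma; filled points passed an adjusted p of 0.05, open points did not, and grey ticks are the 21 other seminal fluid genes. Acp53Ea and Acp53C14b lie near -5.98 and -5.15 in the yakuba complex against the melanogaster complex, where Acp53C14a lies at -2.50, and D. sechellia minus D. mauritiana separates Acp53C14a, at 2.65, from the other 2.

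Inside the yakuba complex no difference passed for the Acp53 genes. Between D. santomea and D. yakuba, 0 of 3 passed with limma and 0 had an unadjusted p under 0.05, where 5.05% of features passed. The differences were 0.32 for Acp53Ea (95% interval -0.95 to 1.596), -0.18 for Acp53C14a (-1.35 to 1.001) and -0.63 for Acp53C14b (-1.59 to 0.33). Between D. teissieri and the mean of D. yakuba and D. santomea, 0 of 3 passed with limma and 0 had an unadjusted p under 0.05, where 6.58% of features passed, and the differences were 0.74 (-0.37 to 1.84), -0.09 (-1.11 to 0.93) and 0.60 (-0.23 to 1.43) for the same genes. Each of these intervals includes a difference of 1 log2 unit in at least one direction. Of the other seminal fluid genes, Acp76A (-2.71 ± 0.74, adjusted p = 0.0253, limma) and antr (-1.45 ± 0.31, adjusted p = 0.00378, limma) were lower in D. santomea than in D. yakuba, and Acp32CD was lower in D. teissieri (-2.07 ± 0.32, adjusted p = 5.56e-05, limma).

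When the 7 species were placed in order of their mean level, 3 of the 18 steps between neighbours passed the threshold. For Acp53Ea the order from high to low was D. melanogaster (11.18 ± 0.76), D. mauritiana (9.54 ± 0.79), D. sechellia (8.93 ± 0.53), D. simulans (8.17 ± 0.63), D. teissieri (3.96 ± 1.90), D. santomea (3.39 ± 0.75) and D. yakuba (3.06 ± 0.72; log2 mean ± SD, n = 30 for D. simulans and 3 for each other species). Only the step from D. simulans to D. teissieri passed, at 4.20 ± 0.47 (SE; adjusted p = 6.01e-09, limma), where 35.1% of features passed. For Acp53C14b the order was D. melanogaster (11.63 ± 0.32), D. mauritiana (10.79 ± 0.20), D. simulans (10.50 ± 0.50), D. sechellia (10.33 ± 0.66), D. teissieri (6.06 ± 0.42), D. yakuba (5.78 ± 1.22) and, lowest, D. santomea (5.15 ± 0.84), and only the step from D. sechellia to D. teissieri passed, at 4.27 ± 0.47 (SE; adjusted p = 1.56e-08, limma), where 24.4% of features passed.

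For Acp53C14a the order had a different head. It was D. sechellia (13.47 ± 0.64), D. melanogaster (13.05 ± 0.85), D. simulans (11.75 ± 0.66), D. mauritiana (10.82 ± 0.14), D. yakuba (9.89 ± 0.74), D. santomea (9.72 ± 1.68) and D. teissieri (9.71 ± 1.01). The 1 step that passed was from D. melanogaster to D. simulans, described above, and the step from D. mauritiana to D. yakuba, at 0.93 ± 0.58 (SE), did not (adjusted p = 0.263, limma), where 22.4% of features did.

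The 10 D. simulans crosses did not separate the Acp53 genes. Mean log2 levels ran from 7.60 in 36x37 to 8.85 in 43x61 for Acp53Ea, from 11.07 in 85x99 to 12.59 in 99x105 for Acp53C14a and from 9.91 in 37x43 to 10.86 in 43x61 for Acp53C14b. In the F-test among crosses 0 of 3 passed with limma (adjusted p = 1, 0.8 and 1) and 0 had an unadjusted p under 0.05; 0.558% of features passed. Of the 21 other seminal fluid genes 1 passed, Acp95EF (adjusted p = 9.52e-06, limma). When each cross was set against the mean of the other 9, 0 of 30 tests passed with limma and 1 had an unadjusted p under 0.05, Acp53C14a in 99x105, which averaged 12.59, against 11.66 in the other 9 (difference 0.93 ± 0.43, adjusted p = 0.341, limma). Over these 10 comparisons pooled, 0.131% of tests over all features passed, between 0% and 0.623% in each.

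The standard deviation of the cross means was 0.393 for Acp53Ea, 0.515 for Acp53C14a and 0.310 for Acp53C14b, against a median of 0.406 over all features. Single arrays stood at the ends of the range. Replicate 3 of 99x105 had the highest D. simulans signal of each gene, with 707, 12631 and 4984 for Acp53Ea, Acp53C14a and Acp53C14b, against 250 and 242, 4109 and 4716, and 889 and 1301 on the other arrays of that cross. On the normalised log2 scale it exceeded their mean by 1.67, 1.47 and 2.10. Replicate 3 of 37x43 had the lowest signal of Acp53C14a (1253, against 3808 and 4348) and of Acp53C14b (727, against 1104 and 1164), but not of Acp53Ea (253, against 190 and 281).

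Those arrays also differed in the marker lists. On replicate 3 of 99x105 the summed signal of the 21 other seminal fluid genes was 312520, against 88485 and 98069 on the other arrays of that cross, but the median log2 deviation of these genes from those arrays was 0.20. The testis sum was 453459, against 135102 and 137514, and the sum of the ejaculatory duct and bulb genes was 49685, against 12440 and 11490. Of that list 2 of 7 symbols were measured; Ebp and EbpIII, which the probe table gives under these newer symbols, were not in the sum. On replicate 3 of 37x43, which carried female transcripts, the seminal sum was 56568, the duct and bulb sum 7602 and the testis sum 107409, the lowest of D. simulans. The part of tissue content in these deviations was not tested.

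**Figure D3:**
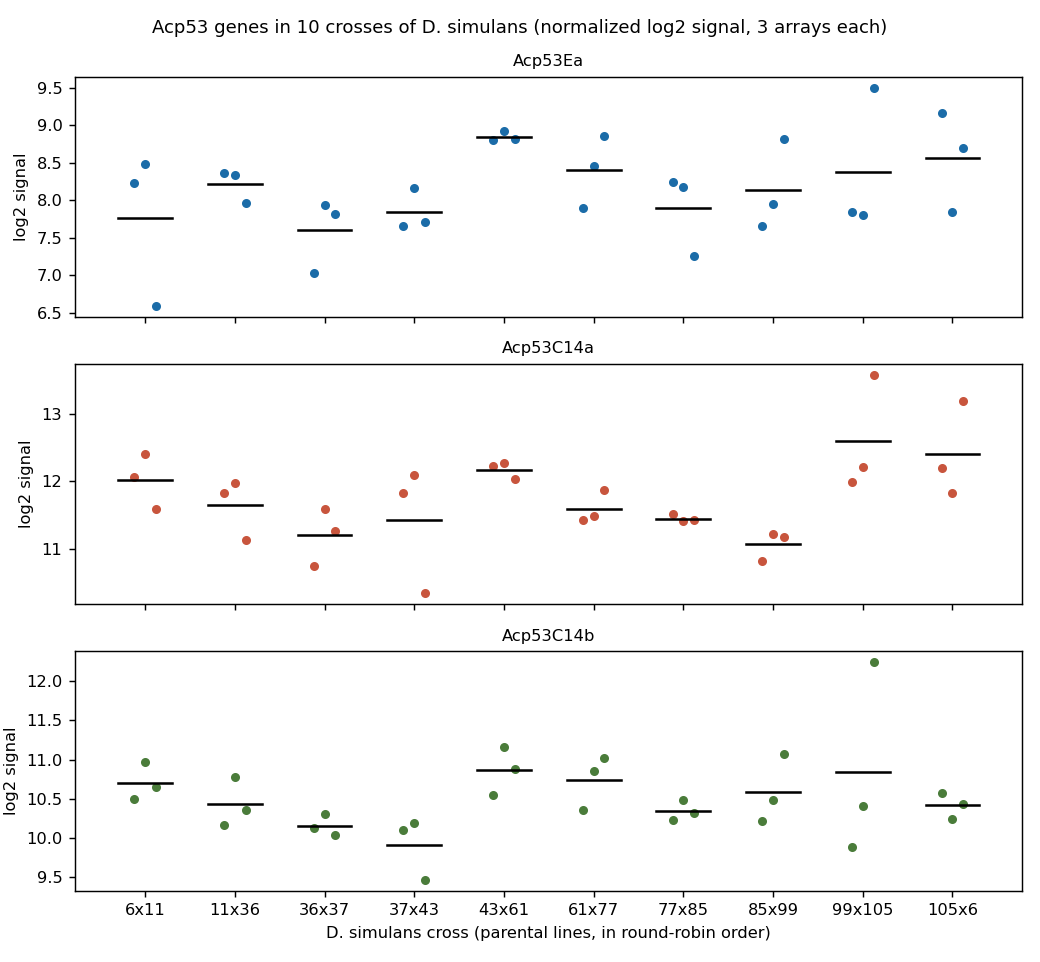
Normalised log2 signal of each Acp53 gene on the 3 arrays of each of 10 D. simulans crosses, with the cross mean as a bar. Replicate 3 of 99x105 stands highest for all 3 genes, and replicate 3 of 37x43 lowest for Acp53C14a and Acp53C14b.

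The paralogs varied together, most closely Acp53Ea with Acp53C14b among species. Over the 7 species means Pearson's r was 0.985 for that pair, 0.844 for Acp53Ea with Acp53C14a and 0.838 for Acp53C14a with Acp53C14b. The species fall into the 2 complexes, so these values largely restate the division between them. The first eigenvalue of the correlation matrix held 0.926 of the variation over species means. Over the 10 cross means, which share lines between neighbours, it held 0.730 (jackknife SE 0.167), and r was 0.630, 0.606 and 0.546 for the same pairs. None of the Acp53 genes passed the F-test among crosses, and replicate 3 of 99x105, high for each gene, enters these means. Whether these r values go beyond the spread of replicate arrays was not tested. Over the deviations of the 48 arrays from their group means the first eigenvalue held 0.695, with r of 0.480, 0.675 and 0.464 for the same pairs. These points share each array's tissue content and normalisation. All are descriptions, with no test.

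The genes also moved with other male reproductive genes from array to array. Over the 48 deviations, Acp53C14a had r = 0.678 with the median deviation of the 21 other seminal fluid genes, 0.691 with that of the ejaculatory duct and bulb genes and 0.641 with that of the testis genes. For Acp53Ea these values were 0.375, 0.506 and 0.397, and for Acp53C14b 0.397, 0.683 and 0.466. With the female genes r was -0.05, -0.23 and -0.21 for Acp53Ea, Acp53C14a and Acp53C14b. The points share arrays and depth of signal, and many yakuba complex signals of Acp53Ea and Acp53C14b were low, with replicates of D. teissieri between 3.24 and 50.3 for Acp53Ea.

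**Figure D4:**
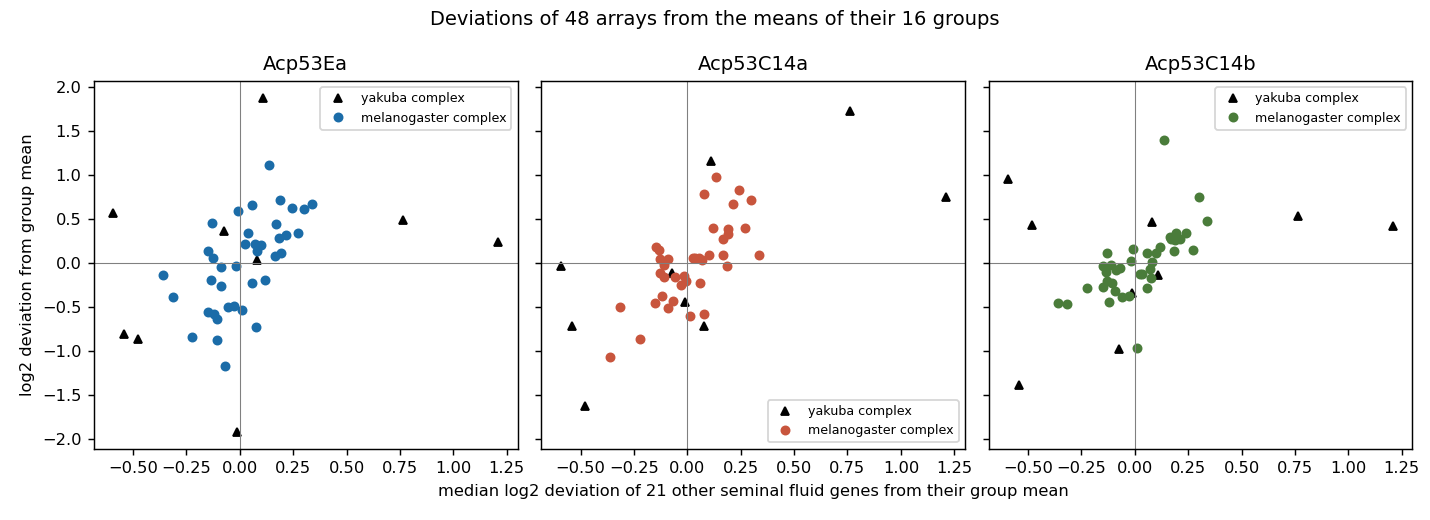
Deviation of each Acp53 gene from its group mean against the median deviation of 21 other seminal fluid genes on the same array (both log2), for 9 yakuba complex arrays (triangles) and 39 melanogaster complex arrays (circles). Over all 48 arrays r is 0.375 for Acp53Ea, 0.678 for Acp53C14a and 0.397 for Acp53C14b, and the yakuba complex arrays span the widest range on the horizontal axis.

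Likeness over the 16 group means separated the genes again. The named genes most like Acp53Ea were Acp53C14b (r = 0.961), CG5107 (0.956), Gbp2, which encodes a growth-blocking peptide (0.954), Acp95EF (0.952) and CG12699 (0.952). Those most like Acp53C14b were Ebp, an ejaculatory bulb protein (0.985), Bbd (0.985), CG5762 (0.981), CG8136 (0.976) and CG5107 (0.974). Those most like Acp53C14a were Obp56d, an odorant binding protein (0.949), BomT3, an immune-induced peptide of the Bomanin family (0.920), CG13309 (0.907), CG16986 (0.895) and CG3740 (0.890). Neither Acp53C14a nor Acp53C14b had a gene of the seminal list among these, whereas Acp53Ea had Acp95EF.

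An r over 0.9 was reached by 119 features (0.962%) for Acp53Ea, 281 (2.27%) for Acp53C14b and 3 (0.0243%) for Acp53C14a. The 16 groups include 10 of 1 species and share the division between complexes. For Acp53Ea and Acp53C14b a high r can therefore come from that division alone. Ebp averaged 6.09, 6.22 and 6.67 in D. santomea, D. teissieri and D. yakuba, against 12.88, 12.19, 12.90 and 15.12 in D. sechellia, D. mauritiana, D. simulans and D. melanogaster. Obp56d averaged 10.75, 10.65 and 10.59 in D. santomea, D. teissieri and D. yakuba, against 13.90 in D. sechellia, 11.68 in D. mauritiana, 12.35 in D. simulans and 13.20 in D. melanogaster, and like Acp53C14a it was highest in D. sechellia and lowest within the melanogaster complex in D. mauritiana.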

How the data were processed

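Total RNA of whole males was hybridised to Drosophila 1.0 arrays. The authors summarised probes with MAS5, and the deposited intensity values have a 2% trimmed mean of 500 on each array. The authors' methods also used loess smoothing and a mask of probes that do not match D. yakuba; the mask left fewer probe sets than the 14010 the deposited table holds, so the table was taken as unmasked, and whether loess was applied to it is not given in the sources used here. The number of arrays limits the precision. No presence calls were used, so low signals are not separated from background.

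Values under 1 (31 values) were set to 1, log2 transformed and quantile normalised between arrays, whose log2 medians had spanned 0.70. After 44 control probe sets were removed, 12367 features (the brightest probe set of each gene, and unnamed probe sets) were tested with limma 3.58.1 in R 4.3.3 in a single fit of 16 groups, D. simulans being the equal mean of 10 crosses, with Benjamini-Hochberg adjustment over all features and a threshold of 0.05. Of the probe sets 12444 had 1 gene symbol, 327 several and 1239 none; none was named from a probe set with several. Ratios within arrays were tested by exact permutation (scipy 1.17.1). The fits were tested on simulated data.

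The genes named were the Acp53 genes, the 5 most like each over group means, and, of the seminal list in each comparison, up to 2 highest and 2 lowest past the threshold, of which the text gives those furthest from 0. The nearest genes on each side of the cluster were not used here, for want of a D. melanogaster gene order. Members and lists were chosen with earlier results of these data known. Marker lists were matched by symbol. Of the seminal list, Acp33A, Acp24A4, Acp54A1, Acp98AB and Mst57Db were not analysed here. Alternatives were another floor, other normalisations, a filter, other variance models, other sets of arrays, a replicate block and leaving out each array.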

Additional observations from a re-analysis of the deposited data

How the results depend on the processing

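Of 3040 values recomputed under alternatives, 2960 kept their direction and their side of the threshold, or moved within their limits. The yakuba complex differences of all 3 genes, the D. simulans minus D. melanogaster difference of Acp53Ea and the D. sechellia minus D. mauritiana difference of Acp53C14a kept both in all alternatives. The number of Acp53 genes past the threshold between D. mauritiana and D. simulans was 0, and became 1 with a floor of 16, with a minimum mean log2 of 6, with trended robust variance and with D. simulans as a single group of 30 arrays, 2 with only the groups compared (Acp53Ea and Acp53C14a), and 0 to 1 with arrays left out, the single gene being Acp53Ea each time. Without single arrays the number was 1 to 3 in D. simulans minus D. melanogaster, 0 to 1 in D. sechellia minus D. simulans and 2 to 4 among the steps of the species order, and the ratio of Acp53Ea to Acp53C14b differed by -1.13 to -0.68.

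Differences of uncalled genes changed sign. For D. sechellia minus D. simulans, Acp53C14b was -0.55 to 0.064 with arrays left out and 0.041 without the arrays that carried female transcripts, an alternative chosen after seeing the data. For D. santomea minus D. yakuba with arrays left out, Acp53C14a was -1.04 to 0.64 and Acp53Ea -0.080 to 0.75. For D. teissieri minus D. yakuba and D. santomea, Acp53C14a was 0.058 with no normalisation, 0.16 with median centring and -0.68 to 0.34 with arrays left out, and Acp53Ea was -0.20 to 1.69. The cause was not tested.

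Counts over all features moved more. With only the groups compared, 201 features instead of 69 passed among crosses (129 without D. yakuba replicate 2), 2269 instead of 1391 in D. sechellia minus D. simulans, 2183 instead of 1381 in D. mauritiana minus D. simulans, 1 instead of 625 in D. santomea minus D. yakuba (385 with median centring) and 0 instead of 814 in D. teissieri minus D. yakuba and D. santomea. Without the arrays that carried female transcripts, 635 passed in D. sechellia minus D. simulans and 427 instead of 650 in D. sechellia minus D. mauritiana. In D. simulans minus D. melanogaster 2373 passed, and 1456 without D. melanogaster replicate 1 and 1327 without replicate 2. Without D. sechellia replicates 1 and 2 in turn, 589 and 686 passed against D. simulans, and 401 and 359 against D. mauritiana (408 without D. mauritiana replicate 3). Without D. mauritiana replicates 1, 2 and 3 in turn, 771, 752 and 739 passed against D. simulans, and 386 passed between D. santomea and D. yakuba without D. santomea replicate 2.

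Replicate numbers did not pair the arrays. The deviations of arrays with the same number had a mean r of -0.000525 over 360 pairs (-0.183 to 0.148), and 15 of 48 arrays correlated best with their own number. A fit with the replicate number as a block left the number of Acp53 genes past the threshold as it was, with 3 in D. simulans minus D. melanogaster, and 2375 features in all.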
